A study of Rattus norvegicus with 21 samples.

Results

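The secretory granule exocytosis machinery was followed here in cultured rat islets: the genes for syntaxins, VAMPs and SNAPs, synaptotagmins and synaptotagmin-like proteins, Rab3 and Rab27 GTPases, and the priming factors of the RIM, Munc13 (Unc13) and complexin families. Members were picked by gene symbol. Of 17025 genes in the count table, 62 carried such a symbol, and 51 of them reached 1 CPM (counts scaled to library size, before any further scaling) in 3 or more libraries. Stx11 and Rims1 were just inside, with 3 libraries each (highest values 14.6 and 1.36 CPM), and Syt15 was just outside, with 1 library (highest value 1.36 CPM). All 51 members were also tested, so none was lost to the filter on low counts.

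The islets came from Sprague Dawley rats, whose age and sex the labels do not give. Each of 3 separate preparations pooled islets from 8 rats and divided them over the culture conditions, so replicates are preparations and not single animals. Control medium had 11 mM glucose without palmitate. Glucolipotoxic (GLT) medium had 27 mM glucose and 300 µM palmitate, a model of nutrient overload in which whole islets, with all their cell types, are exposed in culture. Condition 1 was 3 h control, condition 4 was 24 h GLT, conditions 5 and 6 were GLT with compound D at 300 nM for 3 h and 24 h, and conditions 7 and 8 were GLT with compound E at 300 nM for 3 h and 24 h. Conditions 1 to 6 had 3 libraries each, condition 8 had 2 (preparations 1 and 2) and condition 7 had 1 (preparation 2). For 6 of the 21 libraries the sample records and the deposited sample sheet disagree: the records name condition 2 as control at 24 h and condition 3 as GLT at 3 h, while the sheet swaps these names. Both are called by number here, and each comparison that uses them is given with both readings where it is described.

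Insulin leaves the beta cell when granules fuse with the plasma membrane. Rab3 and Rab27 GTPases and their effectors tether granules, Munc13 and RIM proteins prime them, and fusion is driven by SNARE proteins, in beta cells chiefly Stx1a and Snap25 on the plasma membrane and Vamp2 on the granule. Synaptotagmins couple fusion to calcium, complexins clamp and assist it, and other syntaxins serve the endoplasmic reticulum, Golgi and endosomes.

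Depth, as 1e6 counts in genes per library, was 22.3 to 40.2 (median 27.8). Insulin genes made up 9.32% to 45.9% of these counts, and the 51 members 0.262% to 0.604%. After TMM scaling, the normalization used for all CPM values that follow, the members summed to 3643 to 5031 CPM. Beta cell markers (8 of 10 symbols matched) summed to 79480 to 633100 CPM over the libraries. Delta cell markers (4 of 4) summed to 327 to 2309 CPM, PP cell markers (2 of 2) to 232 to 2373 CPM, duct markers (4 of 6) to 8.69 to 260 CPM and macrophage markers (8 of 8) to 17.8 to 49.3 CPM. Acinar markers (10 of 11 matched) summed to 5.83 to 24.8 CPM, with Cpb1, Cuzd1 and Pnlip near 0. Red cell markers (5 of 5) summed to 4.35 to 14.3 CPM over the 3 h conditions 1, 5 and 7. Over the 24 h conditions 4, 6 and 8 the sums were 0.565 to 1.86 CPM. They were 9.34 to 14.1 CPM in condition 2 and 0.704 to 0.865 CPM in condition 3. In these sums condition 2 lay with the 3 h conditions and condition 3 with the 24 h ones, the times on the sheet. Which labels hold was not tested. Because whole islets were sequenced, fewer cells of a type and less RNA per cell cannot be told apart.

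2 libraries stood apart in these genes: 24 h GLT with compound D in preparation 2, and 24 h GLT with compound E in preparation 1. In the compound E library, 10 members were lower than in the other compound E library by 1 or more on the log2 scale, and 1 (Vamp8) was higher by that much. The compound D library had 11 members lower and 5 higher by that much than the mean of its group's other libraries. Across all 12576 genes tested, 13.5% and 23.6% differed by that much, against 21.6% and 31.4% of the members. The deviations ran alike (Pearson r = 0.815 across the 51 members; each set of deviations comes from 1 library, so genes are not replicates). Unc13a, which encodes the priming factor Munc13-1, had 29.2 CPM in the compound E library against 105 in its partner, and 36.5 CPM in the compound D library against 121 and 102. In each of conditions 1 to 5, too, preparation 2 had the lowest value. It had 67.1 against 154 and 134 CPM in condition 1 and 101 against 136 and 186 CPM in condition 2. In condition 3 it had 63.9 against 97.8 and 130 CPM, and in condition 4 106.5 against 113 and 132 CPM. In condition 5 it had 60.9 against 144.5 and 136 CPM. Syt7, the gene of a high-affinity calcium sensor of insulin granules, had 67.0 against 216 CPM and 93.3 against 249 and 243 CPM. Vamp8, a SNARE gene of endosomes and secretory granules, went the other way, with 237 against 99.0 CPM and 205 against 53.6 and 61.5 CPM. Preparation 2 also had the highest Vamp8 value in each of conditions 2 to 5, by most in condition 5 (125 against 38.4 and 58.7 CPM). In condition 3 it had 112 against 95.8 and 70.1 CPM. It was not the highest in condition 1 (109 against 43.9 and 111 CPM). Results for the members in the comparisons that use either library are given with and without it.

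**Figure D1:**
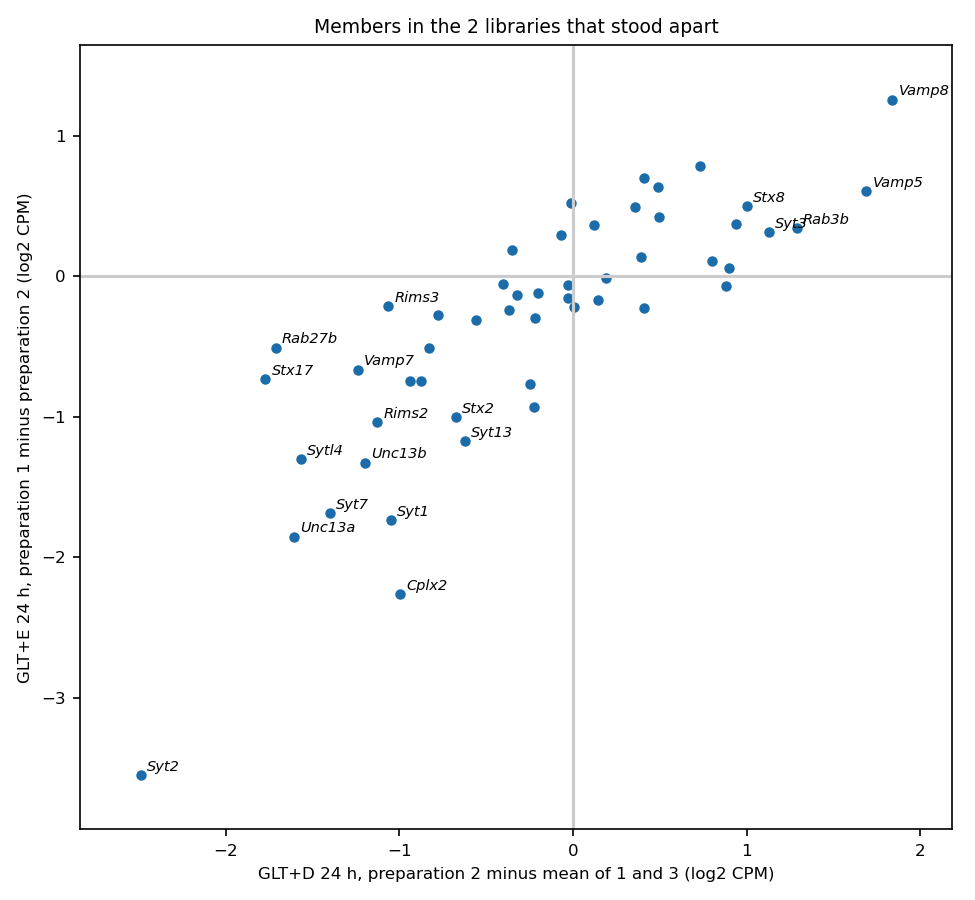
Each point is 1 of the 51 members; the horizontal axis is its log2 CPM in the 24 h compound D library of preparation 2 minus the mean of preparations 1 and 3, and the vertical axis its log2 CPM in the 24 h compound E library of preparation 1 minus that of preparation 2. Members named lie at 1 or more from 0 on an axis; Syt2, Unc13a, Sytl4 and Syt7 are low in both libraries and Vamp8 is high in both.

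Over 12 comparisons, 42 of the 51 members passed the test in none and 9 passed in at least 1, for 17 calls in all. That is 2.78% of 612 tests, near the 3.19% of all 150912 tests that passed. The share of all genes that passed in at least 1 comparison was not computed. The 9 members, and the counts by role that follow, therefore have no background of their own. Fold changes below are fitted log2 values with their standard error (SE), from edgeR's quasi-likelihood test with preparation as a block, and passing means an adjusted p (Benjamini-Hochberg, 12576 genes) under 0.05. The calls fell on 3 of 11 synaptotagmins (Syt4, Syt12 and Syt17), 3 of 9 Rab and synaptotagmin-like genes (Rab3a, Rab3d and Sytl4), 1 of 9 endomembrane SNARE genes (Stx18), 1 of 7 plasma membrane SNARE genes (Stx1a), 1 of 8 priming and clamping genes (Rims1) and 0 of 7 vesicle SNARE genes. In all 49 single-preparation differences behind these 17 calls, the direction was that of the fitted value. The calls were selected by a test on these same libraries, so this agreement is largely built in and is no separate support.

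**Figure D2:**
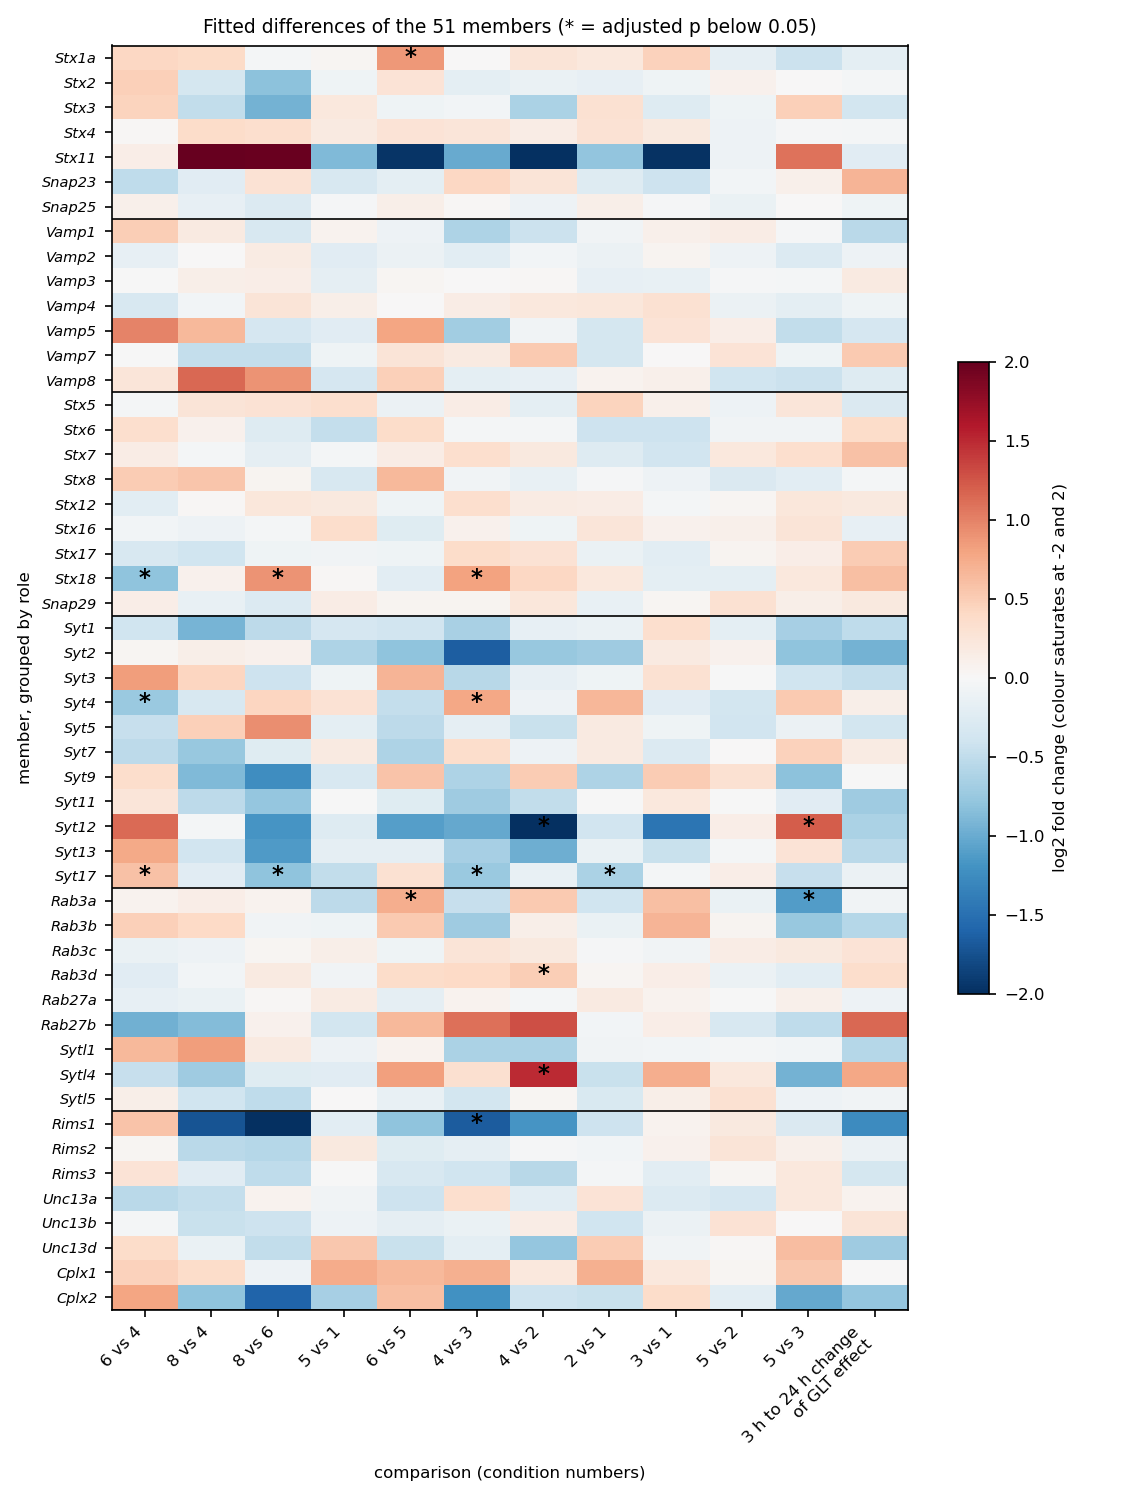
Fitted log2 fold changes of the 51 members (rows, in blocks by role) in 12 comparisons (columns, first condition against second); red is higher, blue is lower and a star marks an adjusted p under 0.05. The 17 stars lie on 9 genes, and the strong colours of Stx11 carry no star.

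Several genes of the fusion core varied little. Snap25, the target SNARE of the granule fusion complex, ran from 229 to 315 CPM over the 21 libraries (median 269), a 1.38-fold range, the narrowest of the members. Its fitted differences lay between -0.27 and 0.12 in the 12 comparisons, and no 95% interval reached below -0.61 or above 0.42. Vamp2, the granule SNARE, ran from 189 to 304 CPM (median 231). Its differences lay between -0.27 and 0.17, with intervals inside -0.68 to 0.63. Rab27a, the GTPase that carries granules to the plasma membrane, ran from 162 to 261 CPM (median 205), with differences between -0.18 and 0.18 and intervals inside -0.52 to 0.47. Every condition's range overlapped that of 24 h GLT in Vamp2 and Rab27a. In Snap25 the 24 h compound E libraries (229 and 239 CPM) lay just below the GLT libraries (240 to 287 CPM), and the others overlapped. A 2-fold change lay outside the intervals of these 3 genes. Rab3c, Vamp3, Stx12, Snap29, Stx16, Vamp4 and Rab3d also ranged less than 2-fold. Among the members tied to the libraries that stood apart, Unc13a (29.2 to 186 CPM, median 106) and Syt7 (67.0 to 397 CPM, median 238) ranged more than 5-fold and passed in no comparison. The genes that follow, also named whatever their values, passed in none. Among SNARE genes, the differences of Vamp3, a constitutive vesicle SNARE, lay between -0.18 and 0.17, those of Stx4, a plasma membrane syntaxin, between -0.11 and 0.36, those of Stx3 between -0.94 and 0.48, and those of Snap23 between -0.51 and 0.67. Among synaptotagmins, Syt5 and Syt9 came nearest in compound E against D at 24 h (0.93 and -1.25, adjusted p = 0.0857 and 0.0836). Syt13 came nearest in condition 4 against 2 (-0.98, adjusted p = 0.0895) and Syt11 ranged from -0.77 to 0.24. The RIM gene Rims2 lay between -0.57 and 0.26, Cplx1 between -0.10 and 0.75, and Cplx2 between -1.60 and 0.79.

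**Figure D3:**
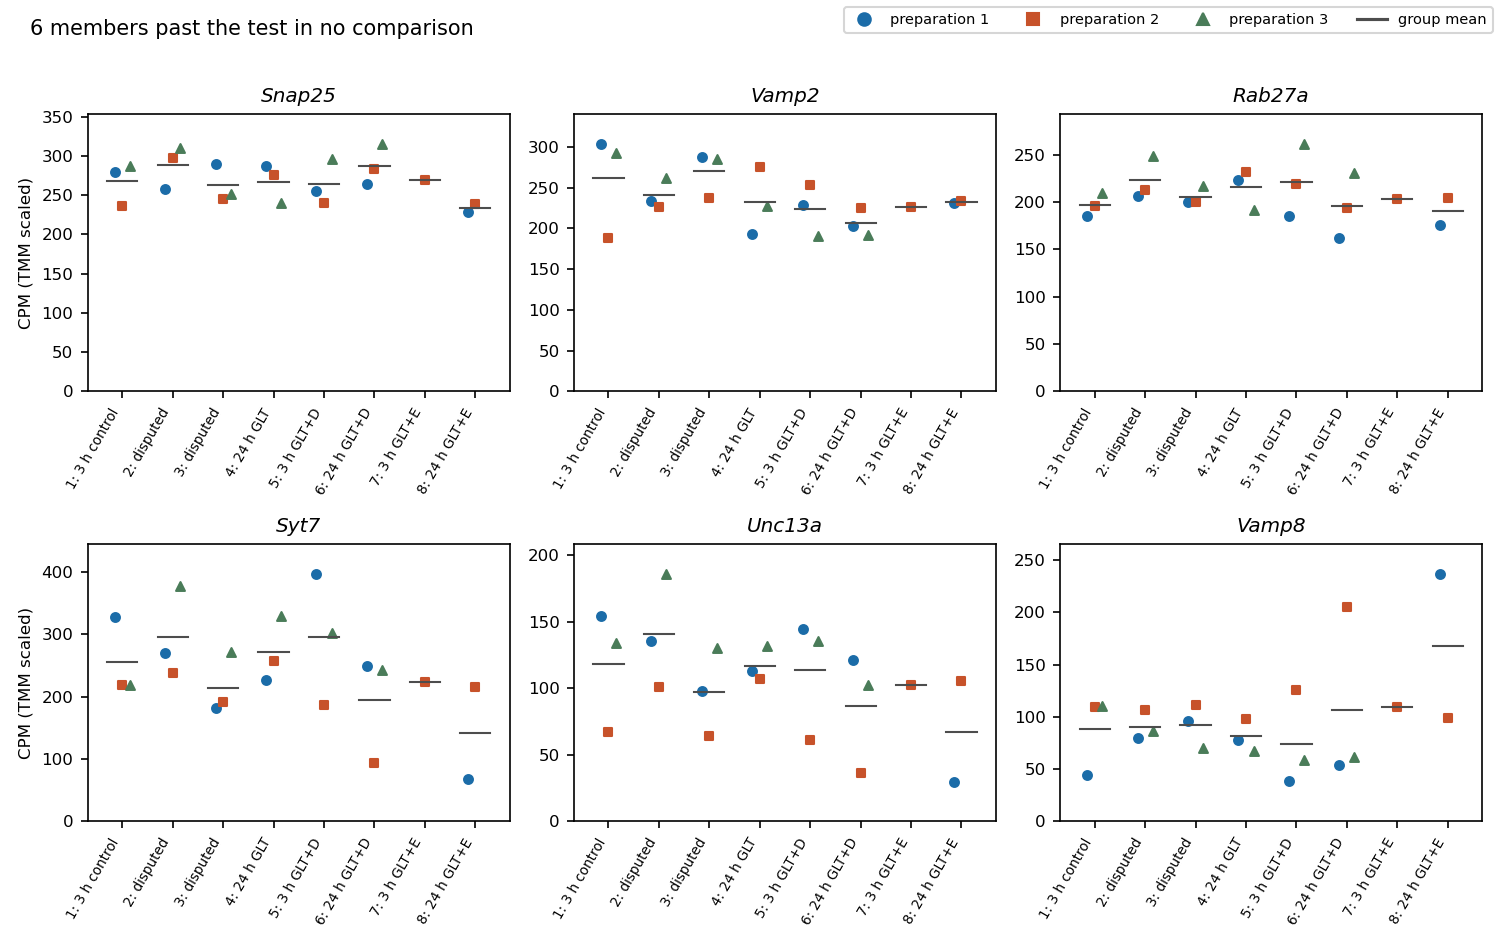
CPM (linear axes from 0) of 6 members by condition; symbols mark the preparation and bars the group mean. Snap25, Vamp2 and Rab27a stay within 1.61-fold over all libraries, while Syt7, Unc13a and Vamp8 are displaced in the compound D library of preparation 2 and the compound E library of preparation 1. In preparation 2, Unc13a is also lowest in each of conditions 1 to 5, and Vamp8 highest in each of conditions 2 to 5.

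Some wide ranges came from 1 preparation or 1 library. Stx11, a SNARE gene known from lymphocytes, had 13.8, 6.26 and 5.74 CPM in conditions 1, 2 and 5 of preparation 3 and at most 0.499 CPM in the other 18 libraries. Stx6, of the Golgi and endosomes, had 118, 64.9 and 61.2 CPM in those 3 libraries, and 43.3 to 63.1 CPM elsewhere. T cell markers (5 of 5 matched; Cd3d, Cd3e, Cd3g and Cd8a near 0) summed to 3.12 to 10.4 CPM over all libraries. Stx7, an endosomal SNARE gene, had 15.6 CPM in condition 3 of preparation 2 and 56.5 to 80.4 CPM in every other library. In that library 23.4% of reads had more than 1 alignment, against 4.92% to 8.51% in the others. The part of these shares in the Stx7 value was not tested.

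Under 24 h GLT, compound D lowered the SNARE gene Stx18 and the synaptotagmin gene Syt4 and raised Syt17. Stx18 encodes a syntaxin of the endoplasmic reticulum that takes vesicles back from the Golgi, so it is not part of granule fusion itself. With 24 h GLT it had 120, 124 and 170 CPM in preparations 1, 2 and 3, and with compound D 61.6, 65.4 and 113 CPM. The groups did not overlap, and preparation 3 was the highest in both. The difference was -0.81 (SE 0.14, adjusted p = 0.00565), 1.76-fold lower with compound D. Syt4, an abundant synaptotagmin with weak calcium dependence, had 1490, 1318 and 1101 CPM with GLT and 735, 655 and 911 CPM with compound D. These groups did not overlap either, and the drop was smallest in preparation 3 (-0.74, SE 0.19, adjusted p = 0.0381). Syt17, a synaptotagmin-related protein without a membrane anchor, had 29.1, 30.0 and 28.3 CPM with GLT, a narrow group. With compound D it had 43.9, 52.7 and 35.9 CPM, all higher (0.59, SE 0.15, adjusted p = 0.0418).

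Those 3 of 51 members (1 higher and 2 lower) passed among 513 genes in all, 4.08% of those tested, so the members' share of 5.88% was near the background. Their median difference was 0.10, against 0.01 over all genes. DESeq2 called 5 members, adding Syt3 and Syt12, and 7.34% of all genes. Without the compound D library of preparation 2, Stx18 alone passed (1.15% of all genes). None did without preparation 1 or 3 (0% and 0.703% of all genes), or with library size only (1.71%). Summed alpha cell markers (7 of 7) were 11780 to 22680 CPM with GLT and 15130 to 31760 CPM with compound D. Insulin took 9.32% to 25.8% of counts with GLT. With compound D it took 11.7%, 43.3% and 10% in preparations 1, 2 and 3. Red cell markers summed to 0.565 to 0.734 CPM with GLT and 1.18 to 1.86 CPM with compound D. The part of these values in the result was not tested.

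The 250 bases before the annotated start of Stx18, called in both compound D comparisons at 24 h, are shown with those of Sytl4 and Rab3a, which carry calls given further on. They are RefSeq sequences of the rat build GRCr8, on the minus strand, at chr14:76973727-76973976, chrX:101479152-101479401 and chr16:18722274-18722523. Capitals mark matches to any of the motifs searched on both strands: TGACGTG, the cyclic AMP response element TGACGTCA (whose first 6 letters are those of the former), the E-box CACGTG, the CCAAT box, and the endoplasmic reticulum stress element, which contains CCAAT.
Stx18: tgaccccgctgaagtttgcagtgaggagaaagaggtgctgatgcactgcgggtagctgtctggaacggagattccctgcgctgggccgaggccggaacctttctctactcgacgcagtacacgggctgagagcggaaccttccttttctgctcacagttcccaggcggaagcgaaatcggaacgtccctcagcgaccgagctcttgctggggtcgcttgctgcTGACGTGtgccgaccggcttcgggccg
Sytl4: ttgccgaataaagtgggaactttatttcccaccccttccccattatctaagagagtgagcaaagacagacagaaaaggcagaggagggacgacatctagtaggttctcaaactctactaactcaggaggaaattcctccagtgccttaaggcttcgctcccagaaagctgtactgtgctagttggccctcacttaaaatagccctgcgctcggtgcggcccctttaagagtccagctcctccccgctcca
Rab3a: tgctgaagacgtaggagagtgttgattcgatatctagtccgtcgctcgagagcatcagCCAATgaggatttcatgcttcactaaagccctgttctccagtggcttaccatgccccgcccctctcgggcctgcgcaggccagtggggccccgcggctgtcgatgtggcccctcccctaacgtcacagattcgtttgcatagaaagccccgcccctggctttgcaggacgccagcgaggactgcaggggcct
TGACGTG, a core that ATF6 and XBP1 can bind, lay 27 to 21 bases before the Stx18 start on the gene strand. Among 42 members with a promoter entry, 3 held it (Stx18, Stx5 and Vamp2), against 1.54% of 33469 promoters searched over the same length. For each motif a member counted if any of its entries held it, while the background is a share of entries, so these are unlike measures. Stx5 and Vamp2 passed in no comparison. CCAAT was in 12 of the 42 (34.0% of all promoters), Rab3a among them, TGACGTCA in 1 (1.59%), CACGTG in 2 (5.59%) and the stress element in 0 (0.0657%). Sytl4 held none of these letters in this window. Syt17 and Syt12 had no entry.

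With compound E at 24 h, no member passed against GLT alone. Stx18 had 138 and 121 CPM in the compound E libraries of preparations 1 and 2, inside the 24 h GLT range (0.09, 95% interval -0.25 to 0.42). Syt17 had 24.2 and 28.3 CPM, the first below the lowest GLT library and the second level with it at 28.3 CPM (-0.22, interval -0.59 to 0.15). Syt4 had 1038 and 1135 CPM, overlapping GLT (-0.32, interval -0.77 to 0.14). By edgeR 0 of 51 members passed, 0 of 12576 genes passed (0% of those tested), and DESeq2 called 0 members. At an unadjusted p under 0.05 there were 4 members, 7.84%, against 6.46% of all genes. Of the 51 intervals, 25 lay within 2-fold either way, and the others reached past 2-fold. Leaving out preparation 2, which leaves the compound E library that stood apart alone in its group, 21 members (41.2%) and 26% of all genes passed. Without that library 0 passed.

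Compared directly at the same dose and time, compounds E and D differed in Stx18 and Syt17. Stx18 was higher with E (138 and 121 against 61.6, 65.4 and 113 CPM, no overlap), by 0.90 (SE 0.16, adjusted p = 0.00716). Syt17 was lower with E (24.2 and 28.3 against 43.9, 52.7 and 35.9 CPM, no overlap), by -0.81 (SE 0.17, adjusted p = 0.021). Syt4 did not pass (0.43, interval -0.02 to 0.88), nor did Snap25 (-0.27, interval -0.61 to 0.07) or Vamp2 (0.17, interval -0.29 to 0.63). The labels give no structure for either compound. In all 2 of 51 members passed (3.92%) against 3.01% of all genes. Without the compound E library of preparation 1, or without preparation 1, neither call held. Stx18 was at 0.75 and Syt17 at -0.75 in the first case, and at 0.69 and -0.75 in the second. Each leaves 1 compound E library, so the lost calls cannot be read as a result about the members. Without preparation 2, 25 members (49.0%) and 36.4% of all genes passed. Without the compound D library of preparation 2, 3 passed (Stx18, Syt17 and Syt5, with 3.58% of all genes). Without both libraries that stood apart, again with 1 compound E library, neither Stx18 (0.63) nor Syt17 (-0.63) held.

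At 3 h, GLT with compound D against control called 0 of 51 members, against 13 genes in all (0.103%). DESeq2 called 0 members, against 0.859% of all genes. At an unadjusted p under 0.05 there were 4 members (7.84%), against 6.5% of all genes. Syt17 had the smallest p among them: 58.3, 52.2 and 40.1 CPM in control and 37.7, 36.0 and 33.0 CPM with GLT and compound D, groups that did not overlap (-0.49, SE 0.15, adjusted p = 0.375). Snap25 (-0.02, interval -0.32 to 0.28) and Vamp2 (-0.22, interval -0.63 to 0.19) had intervals inside 2-fold.

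Within GLT plus compound D, Stx1a and Rab3a rose from 3 h to 24 h. Stx1a, the plasma membrane syntaxin of granule fusion, had 5.89, 8.70 and 8.44 CPM at 3 h and 11.7, 17.2 and 12.7 CPM at 24 h. All 24 h libraries lay above all 3 h ones (0.86, SE 0.19, adjusted p = 0.0156). Rab3a, a granule GTPase, had 35.6, 48.5 and 17.1 CPM at 3 h and 47.1, 74.2 and 38.3 CPM at 24 h. It rose in every preparation (0.72, SE 0.20, adjusted p = 0.0483), although preparations differed more than times and the groups overlapped. The 2 of 51 members (3.92%) compare with 769 genes in all, 6.11% of those tested. Sytl4, which encodes granuphilin, the Rab27 effector that docks insulin granules, had 360, 209 and 276 CPM at 3 h and 576, 223 and 757 CPM at 24 h. It did not pass (0.82, SE 0.37, adjusted p = 0.21), and without both libraries that stood apart it did, together with Stx1a (5.36% of all genes). No member passed without the compound D library of preparation 2 alone (3.04% of all genes), or without preparation 1 or 3 (0.0723% and 0.566%). Endothelial markers (8 of 8) summed to 178 to 210 CPM at 3 h and 28.7 to 112 CPM at 24 h, red cell markers (5 of 5, Alas2 near 0) to 4.35 to 14.3 and 1.18 to 1.86 CPM. Their part in these differences was not tested.

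**Figure D4:**
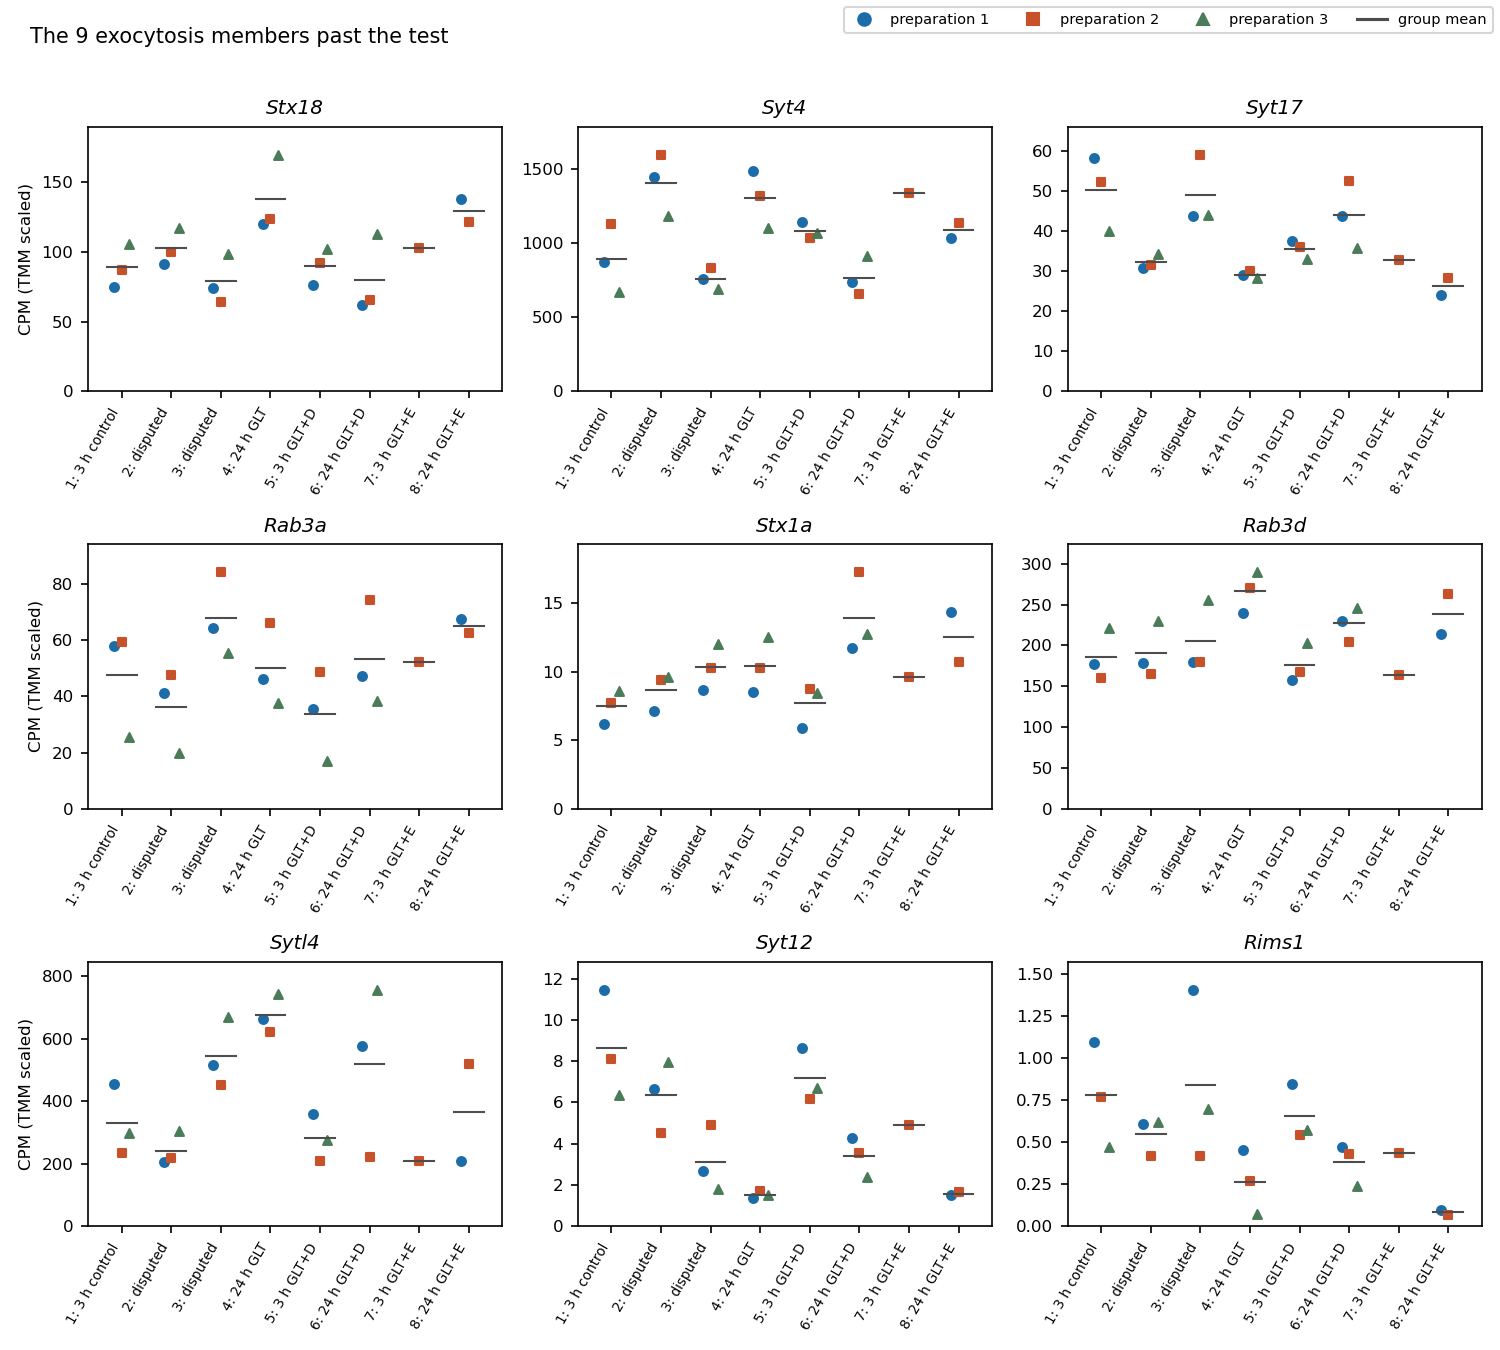
CPM (linear axes from 0) of the 9 members that passed in at least 1 comparison, by condition; symbols mark the preparation and bars the group mean, and conditions 2 and 3 carry different names in the records and the sheet. Stx18 is highest in conditions 4 and 8, and Syt17 is low in conditions 2, 4, 5, 7 and 8. Syt12 is lowest in conditions 4 and 8, and lower in conditions 3 and 6 than in condition 1.

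Condition 4 (24 h GLT) against condition 3 is 24 h GLT against 24 h control by the sheet, and 24 h against 3 h of GLT by the records. Stx18 and Syt4 were higher and Syt17 and Rims1 lower in condition 4. Stx18 had 73.7, 64.0 and 98.5 CPM in condition 3, all below the GLT libraries given above (0.81, SE 0.14, adjusted p = 0.00481). Syt4 had 755, 832 and 688 CPM, again without overlap (0.78, SE 0.19, adjusted p = 0.0265). Syt17 had 43.9, 59.1 and 44.0 CPM, all above the GLT libraries (-0.74, SE 0.15, adjusted p = 0.0123). Rims1, an active zone scaffold gene, had 1.41, 0.421 and 0.698 CPM in condition 3 and 0.452, 0.270 and 0.0711 CPM in condition 4. These groups overlapped, and the call (-1.66, SE 0.45, adjusted p = 0.0417) rests on 36, 14 and 21 reads against 12, 7 and 2.

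These are 4 of 51 members (7.84%) against 5.97% of all genes, and 17 members (33.3%) had an unadjusted p under 0.05 against 21.1% of all genes. For Stx18, Syt4 and Syt17 the compound D and condition 3 comparisons share the 24 h GLT libraries, so their opposite signs are not independent. Without preparation 1 or 3 no member passed (0.121% and 0.727% of all genes). Without preparation 2 there were 2 (Stx18 and Syt4, 3.65% of all genes). Without condition 3 of preparation 2 there were 2 (Rims1 and Stx18, 1.74% of all genes). Without the compound E library of preparation 1 there were 7 (8.26% of all genes), and without both libraries that stood apart 8 (10.1% of all genes). Stellate cell markers (8 of 8) summed to 1095 to 1518 CPM in condition 3 and 486 to 887 CPM in condition 4. Their part in the result was not tested.

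Condition 4 against condition 2 is 24 h against 3 h of GLT by the sheet, and 24 h GLT against 24 h control by the records. Sytl4 had 205, 217.5 and 304 CPM in condition 2 and 663, 622 and 745 CPM in condition 4. The lowest GLT library was more than double the highest of condition 2 (1.49, SE 0.38, adjusted p = 0.0252). Syt12, whose product is a synaptotagmin that does not bind calcium, had 6.68, 4.50 and 7.95 CPM in condition 2 and 1.36, 1.70 and 1.49 CPM in condition 4. That fall, 4.27-fold, was the largest among the members called (-2.09, SE 0.35, adjusted p = 0.00262). Rab3d, a secretory granule GTPase gene, had 178, 165.5 and 230 CPM in condition 2 and 239.5, 270 and 290 CPM in condition 4, without overlap (0.49, SE 0.13, adjusted p = 0.0306).

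In this comparison 3 of 51 members passed (5.88%), against 8.52% of all genes. Syt4 (-0.11, interval -0.51 to 0.29) and Syt17 (-0.15, interval -0.47 to 0.17) did not pass, with intervals inside 2-fold. Without preparation 1 or 3 no member passed (0.169% and 0.671% of all genes). Without the compound E library of preparation 1 there were 5 (11% of all genes), and without both libraries that stood apart 7 (13.7% of all genes). Endothelial markers summed to 206 to 244.5 CPM in condition 2 and 37.0 to 97.7 CPM in condition 4, and red cell markers to 9.34 to 14.1 and 0.565 to 0.734 CPM. Their part in the result was not tested.

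Condition 2 against condition 1 (3 h GLT against 3 h control by the sheet, 24 h against 3 h control by the records) called Syt17, which had 30.7, 31.6 and 34.3 CPM in condition 2, below all condition 1 libraries (-0.63, SE 0.15, adjusted p = 0.041). Syt4 had 1448, 1596 and 1180 CPM in condition 2 against 871, 1131 and 673 CPM in condition 1, without overlap, and did not pass (0.67, SE 0.19, adjusted p = 0.0846). DESeq2 called both. The 1 of 51 members (1.96%) compares with 2.31% of all genes. It was lost without preparation 1, 2 or 3 (0.0562%, 2.86% and 0.461% of all genes).

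Condition 3 against condition 1 (24 h against 3 h control by the sheet, 3 h GLT against 3 h control by the records) called 0 of 51 members by edgeR, against 0.692% of all genes, with 5 members (9.8%) at an unadjusted p under 0.05 against 12.9% of all genes. Syt12 had 2.66, 4.93 and 1.83 CPM in condition 3 and 11.5, 8.12 and 6.37 CPM in condition 1, without overlap (-1.46, SE 0.33, adjusted p = 0.0592). DESeq2 called it (3.08% of all genes). So did edgeR without both libraries that stood apart (2.04%), without preparation 2 (0.65%) and without condition 3 of preparation 2 (0.175%). Stellate cell markers summed to 1095 to 1518 CPM in condition 3 and 407 to 599 CPM in condition 1, endothelial markers to 80 to 117 and 196 to 235 CPM, and red cell markers to 0.704 to 0.865 and 7.29 to 10.2 CPM. Their part in the Syt12 values was not tested.

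Condition 5 (3 h GLT with compound D) against condition 2 is the compound D effect at 3 h by the sheet, and 3 h GLT with compound D against 24 h control by the records. It called 0 of 51 members by edgeR, against 0.493% of all genes, and 0 by DESeq2, against 1.31%. By edgeR 1 member (1.96%) had an unadjusted p under 0.05, against 6.75% of all genes. Syt4 (-0.37, interval -0.77 to 0.03), Stx18 (-0.19, interval -0.49 to 0.11) and Syt17 (0.14, interval -0.18 to 0.45) all had intervals inside 2-fold. Condition 5 against condition 3 is the compound D effect at 3 h by the records, and 3 h GLT with compound D against 24 h control by the sheet. It called 2 members (3.92%) against 6.93% of all genes. Rab3a had 64.5, 84.2 and 55.4 CPM in condition 3, above every condition 5 library (-1.11, SE 0.20, adjusted p = 0.00657). Syt12 had 8.64, 6.17 and 6.70 CPM in condition 5, above every condition 3 library (1.21, SE 0.33, adjusted p = 0.0394). Neither passed without preparation 1 or 3 (0.0562% and 0.614% of all genes). Without the compound E library of preparation 1, 4 members passed (9.77% of all genes), and without both libraries that stood apart 6 (12.1% of all genes). Stellate cell markers summed to 1095 to 1518 CPM in condition 3 and 355 to 478 CPM in condition 5, endothelial markers to 80 to 117 and 178 to 210 CPM, and red cell markers to 0.704 to 0.865 and 4.35 to 14.3 CPM. Their part in these calls was not tested.

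Whether the GLT effect changed with time can be tested whichever labels hold, since the swap leaves that contrast as it is. By edgeR 0 of 51 members passed, against 0.0716% of all genes, and DESeq2 called 0, against 0.977%. By edgeR 2 members (3.92%) had an unadjusted p under 0.05, against 8.35% of all genes. These were Snap23, a target SNARE of general secretion (0.67, SE 0.25, adjusted p = 0.458), and Stx18 (0.60, SE 0.20, adjusted p = 0.381). A different GLT response of the machinery at the times was therefore not shown, and the 95% half-width of a member was 0.78 at the median.

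Of 80 further genes listed for exocytosis, 72 were in the table and 71 were tested. Their results are given with all libraries only, including those that stood apart. In the compound D one Mlph had 0.562 CPM (13 reads), against 0.721 and 3.06 CPM in its group's others. In the compound E one it had 10.1 CPM, against 6.19 CPM in its partner. With compound D at 24 h, 1 rose and 1 fell (2.82% against 4.08% of all genes, median -0.13). Mlph, the melanophilin gene, whose product links Rab27 to a myosin motor, had 9.16 CPM ± 2.51 (SD, n = 3) with 24 h GLT and 1.45 ± 1.40 with compound D (-2.87, SE 0.45, adjusted p = 0.00281). Sv2a, a gene of a vesicle membrane glycoprotein, went from 22.7 ± 0.621 to 34.3 ± 4.50 CPM (SD, n = 3; 0.58, SE 0.13, adjusted p = 0.0242). Compound E against compound D called 1 (1.41% against 3.01% of all genes), Mlph (3.04, SE 0.49, adjusted p = 0.00399). Compound E against GLT called 0 (0% of all genes). There 2 had an unadjusted p under 0.05 and the median was -0.22, against 0.04 over all genes. Condition 4 against condition 3 called 2 higher and 1 lower, 4.23% against 5.97% of all genes. Higher were Sec22b, a SNARE gene of the endoplasmic reticulum and Golgi (0.76, SE 0.15, adjusted p = 0.0112), and Mlph (2.07, SE 0.43, adjusted p = 0.0142). The granule membrane protein gene Ptprn2 was lower (-0.92, SE 0.21, adjusted p = 0.0213). Condition 4 against condition 2 called 1 higher and 3 lower, 5.63% against 8.52% of all genes. The GTPase gene Rala was higher (0.59, SE 0.15, adjusted p = 0.0261). Lower were Sv2a (-0.69, SE 0.13, adjusted p = 0.00657), the liprin gene Ppfia2 (-1.08, SE 0.26, adjusted p = 0.0215) and Ptprn2 (-0.76, SE 0.21, adjusted p = 0.0365). From condition 5 to condition 6, Ppfia2 fell (-1.37, SE 0.26, adjusted p = 0.00805) and Ppfia3 rose (0.57, SE 0.16, adjusted p = 0.0449). These are 2.82% of the list, against 6.11% of all genes. Condition 5 against condition 3 called Ppfia2, higher (1.47, SE 0.26, adjusted p = 0.00609), and the Rab3 effector gene Rph3al, lower (-0.80, SE 0.16, adjusted p = 0.0116). These are 2.82% of the list, against 6.93% of all genes. In the other 5 comparisons 0 of the 71 passed edgeR, against 0.0716% to 2.31% of all genes, with 2 to 7 at an unadjusted p under 0.05.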

How the data were processed

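RNA was sequenced from 21 libraries of rat islets. Per the labels, the authors aligned 100 bp read pairs (TopHat2 2.0.3 on Bowtie2 2.0.0, build rn5), counted genes with HTSeq, and treated donor as random in their models. The annotation, strand setting and HTSeq version are not given in the sources used here. The deposited values are raw counts of 17025 genes. Another 5 rows hold HTSeq totals and stayed out of library sizes: no feature 10.3% to 18.7% of each column, more than 1 alignment 4.92% to 23.4%, ambiguous 0.161% to 2.32%. No replicate was a copy: over 19 pairs within a condition, chi-square over its degrees of freedom was 27.7 to 962.

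Counts were tested with edgeR 4.0.16 (R 4.3.3; limma 3.58.1): all 21 libraries in 1 model with condition and preparation, TMM, filterByExpr (12576 genes), a 2-sided quasi-likelihood test and Benjamini-Hochberg adjustment over all genes. SE is the log2 fold change over the square root of F, and 95% intervals use the fitted degrees of freedom. Preparation numbers pair the libraries because each preparation was divided over the conditions. Residual correlation within a preparation was 0.07, 0.183 and 0.425 in preparations 1, 2 and 3 (mean 0.205), and -0.158 between preparations. In preparation 1 it is below 0.1, so the pairing rests on the labels. Alternatives were another scaling, no filter, DESeq2 1.42.0, no block, and libraries left out.

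On simulated counts for compound D against 24 h GLT (12576 genes), the test recovered 37.0% of genes set to a 2-fold change and 78.0% of those set to 4-fold, and called 0 with no change set.

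Members, gene lists and tests were chosen with earlier results of these data known. All members called in any comparison were named, with a fixed set of core genes, and from the further list the called genes, at most 6 per comparison. Role groups were made after the values were seen. Levels were not compared between genes, since no transcript lengths were used. The result of 1 marker list is not reported here.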

Additional observations from a re-analysis of the deposited data

How the results depend on the processing

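Of 144 recomputed counts of members called, 88 were within 1.5 times the reported count and 56 moved. The 88 include every reported count of 0 that stayed at 0. That held in all settings for condition 5 against 1, condition 5 against 2 and the change of the GLT effect. The 88 are therefore no measure of how well counts above 0 held. All 204 recomputed fold changes of the called members kept their direction, and 84 no longer passed. DESeq2 size factors moved no count and shifted the median of all genes by at most 0.015. Library size only shifted it by -0.40 (condition 8 against 4), -0.39 (8 against 6), 0.26 (4 against 2), -0.27 (2 against 1), 0.32 (5 against 2), 0.15 (5 against 3), -0.11 (3 against 1) and 0.36 (the change of the GLT effect), and by under 0.1 in the others. It left 0 members in 6 against 4 (1.71% of all genes), 6 against 5 (1.91%), 2 against 1 (0.533%) and 5 against 3 (2.81%). It left 1 (lower) in 8 against 6 (1.88%), 1 (higher) in 4 against 3 (2.32%) and 1 (lower) in 4 against 2 (5.03%). Without the filter 6 against 5 had 1 (4.45% of all genes) and 2 against 1 had 0 (1.79%). DESeq2 called 5 in 6 against 4 (7.34% of all genes), 4 in 8 against 6 (6.77%) and 4 in 6 against 5 (10.8%). It called 5 in 4 against 2 (12.6%), 2 in 2 against 1 (4.78%) and 1 in 3 against 1 (3.08%). With no replicate block for preparation, 0 passed in 6 against 4 (1.75% of all genes), 8 against 6 (1.18%) and 6 against 5 (3.04%). In that setting 0 also passed in 2 against 1 (1.34%) and 5 against 3 (3.39%), and 2 in 4 against 3 (2.43%). With a preparation or library left out, 7 settings of which 2 were chosen after seeing the data, counts ran from 0 to 4 (6 against 4), 0 to 21 (8 against 4), 0 to 25 (8 against 6), 0 to 3 (6 against 5), 0 to 8 (4 against 3), 0 to 7 (4 against 2), 0 to 2 (2 against 1), 0 to 1 (3 against 1) and 0 to 6 (5 against 3), and stayed at 0 in the remaining 3. Where a setting left 1 library in a group, that library was assumed to vary like the others. Where leaving out preparation 2 left condition 8 with the library that stood apart alone, 21 and 25 members passed, with 26% and 36.4% of all genes. The cause of the other changes was not tested. Replicates are pooled preparations, and the block takes out level differences between them. The p-values therefore measure how condition differences vary from preparation to preparation. Low counts limit Rims1 and Rab27b, with 315 and 596 reads in all libraries.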

Other observations

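The only library of 3 h GLT with compound E (condition 7, preparation 2) entered no comparison. Of the 51 members, 46 lay within 1.5-fold of the 3 h GLT with compound D library of the same preparation, and 0 differed by 2-fold or more. Stx18 had 103 CPM there, against 91.8 CPM with compound D, 87.3 CPM in condition 1 and 99.9 CPM in condition 2 of preparation 2. Syt4 had 1340 CPM, against 1032, 1131 and 1596 CPM, and Syt17 32.9 CPM, against 36.0, 52.2 and 31.6 CPM. Sytl4 had 208 CPM, against 209, 236 and 217.5 CPM, and Syt12 4.91 CPM, against 6.17, 8.12 and 4.50 CPM. With 1 library there is no replicate check.

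Outside the members called, Cplx2, a complexin gene, had 44.6, 50.6 and 41.5 CPM in condition 3 and 15.3, 23.4 and 19.9 CPM in condition 4. The groups did not overlap, and edgeR's test did not pass (-1.21, SE 0.50, adjusted p = 0.171), although it did without the compound E library of preparation 1. In the compound E library of preparation 1 it had 3.60 CPM, the lowest value of all 21. Rab27b, a Rab27 paralog, had 2.37, 1.51 and 1.96 CPM in condition 4 and at most 1.30 CPM in every other library, and did not pass in any comparison. These genes were picked after their values were seen.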
